A study of Homo sapiens with 72 samples.

Results

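The 10 genes described here belong to the NF-kB pathway. They are NFKBIA, NFKBIE, NFKB1, NFKB2, RELB, TNFAIP3, MAP3K14, BIRC3, CXCL8 and CXCL1. They were taken as the rows of the count table with these symbols, 10 of 44659 gene names, of which 29493 had at least 1 count. All 10 passed the filter on low counts in every comparison except BIRC3 in the glutamine comparison at 0 h. Each symbol had 1 row and 0 further rows marked as extra copies.

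NF-kB is a family of dimeric transcription factors that is held in the cytoplasm by inhibitor proteins. In the canonical branch, a kinase complex marks IκBα, the product of NFKBIA, for destruction and releases dimers that contain the p50 product of NFKB1. In the non-canonical branch, the kinase NIK, the product of MAP3K14, drives processing of the NFKB2 product, which pairs with RELB. The freed factors switch on genes for their own inhibitors and for chemokines, so that the signal is short. In melanoma the pathway is known for its part in inflammation, survival and chemokine secretion. Many of these transcripts are also known to be short-lived.

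A375, a human skin melanoma line, was the source of the cytoplasmic RNA in all libraries. These were made with QuantSeq, which sequences the 3′ ends of polyadenylated transcripts. In the siRNA experiment, cells received a pool of 2 siRNAs against CTU2 (siCTU2) or the control siRNA siGL2 42 h before triptolide, in medium with 2 mM glutamine. CTU2 is a subunit of the enzyme that thiolates the wobble uridine of some tRNAs. In the medium experiment, cells were kept without glutamine (mQ) or with it (pQ) for 18 h before triptolide. Triptolide, an inhibitor of RNA polymerase II transcription, was given at 25 µM, alone (T) or with 100 µg/ml cycloheximide (TCHX), an inhibitor of translation elongation, and cells were taken at 0, 3 and 5 h. This gave 72 libraries in 24 groups of 3 replicates. The 4 conditions used 1 cell line, and the labels do not say whether replicates were separate cultures, so the p-values measure the spread between these libraries. A higher value in a bulk library does not tell more transcript per cell from more cells that hold it.

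Total counts ran from 5987692 to 15534331 per library. Of the markers of the melanocyte lineage, SOX10 ran from 25.4 to 424 CPM (counts scaled to the library total) and S100B from 162 to 496, whereas MLANA and TYR stayed at or under 1.47 CPM. In all, 3 libraries stood apart, each a replicate 3, namely siCTU2 TCHX 5 h, mQ T 5 h and pQ TCHX 0 h. The number of genes with a count was 19896 to 20364 in these libraries, and 15507 to 17495 in each of the other 69. The leukocyte markers PTPRC and CD3E reached 31.1 to 32.6 CPM in these 3 libraries and at most 0.759 CPM elsewhere, while LYZ stayed at or under 1.38 CPM in all libraries. The summed leukocyte list reached 64.9 CPM, against a median of 0.509 CPM at 0 h. The keratinocyte marker KRT1 reached 6.39 to 6.69 CPM in them and at most 0.0918 CPM elsewhere, while the largest sums of the endothelial and fibroblast lists in any library were 2.17 and 4.20 CPM. In the same 3 libraries NFKBIA was at 35.1, 35.7 and 47.3 CPM. Counts of calls from fits that hold one of these libraries are given with and without it, or without its replicate number, as are most single values it decided. The percents of transcript left in the TCHX arm of pQ, given below, were not computed without pQ TCHX 0 h replicate 3. The part of these markers' RNA in the results was not tested.

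The readout below is the loss of transcript once synthesis stops, so the stretches shown first are AU-rich letters of the 3′UTR, a feature known from short-lived messages. The letters TATTTAT were searched on the sense strand of the annotated 3′UTR of 1 transcript per gene (GENCODE v44, GRCh38). They occurred in the 3′UTRs of 5 of the 10 genes. NFKBIA held 2 copies in 500 bases, TNFAIP3 2 in 1993, BIRC3 3 in 2301, CXCL8 4 in 1252 and CXCL1 4 in 772. Among 3′UTRs of like length the letters occurred in 14.7% for NFKBIA, 41.8% for TNFAIP3, 46.9% for BIRC3, 31.3% for CXCL8 and 21.7% for CXCL1. The 3′UTRs of NFKBIE, NFKB1, NFKB2, RELB and MAP3K14 held 0 copies. One copy from each of NFKBIA, TNFAIP3, CXCL8 and CXCL1 is shown on the transcript strand with the letters in capitals, at chr14:35401698-35401727 (minus) for NFKBIA, chr6:137882298-137882327 (plus) for TNFAIP3, chr4:73742664-73742693 (plus) for CXCL8 and chr4:73870670-73870699 (plus) for CXCL1.
NFKBIA: accacattttaTATTTATtgtgcttcgagt
TNFAIP3: gtaattcacttTATTTATtttattacaaac
CXCL8: atgtaaagtatTATTTATttgaatctacaa
CXCL1: gagaagtcttcTATTTATttatttattcat

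Promoters of 6 of the 10 genes carry the letters by which κB sites are usually recognised. The letters GGG, then any 3 bases, then TTCC or TCCC were searched on both strands of RefSeq promoters (GRCh38.p14, 250 bases before to 50 after each start, overlapping matches kept). They occurred in 4562 of 35116 promoters (13%) and, of the 8 genes with an entry, in CXCL1, NFKB1, TNFAIP3, NFKB2, BIRC3 and NFKBIA. The 8 genes had 11 promoters and a gene counted if any of its promoters matched, whereas the 13% is per promoter. The 4 windows below are from genes whose 0 h levels are described next, with the matching letters in capitals and each written 5′ to 3′ on the strand of the gene. They lie at chr14:35404806-35404845 (minus) for NFKBIA, chr6:137867177-137867216 (plus) for TNFAIP3, chr4:73869299-73869338 (plus) for CXCL1 and chr10:102395669-102395708 (plus) for NFKB2. A match describes letters and does not show that the site is bound.
NFKBIA: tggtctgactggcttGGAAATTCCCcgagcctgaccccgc
TNFAIP3: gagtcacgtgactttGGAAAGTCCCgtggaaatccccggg
CXCL1: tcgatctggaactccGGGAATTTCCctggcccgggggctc
NFKB2: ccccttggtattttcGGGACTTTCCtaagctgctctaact

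The siRNAs that separate siCTU2 from siGL2 are shown because the first comparison rests on them. Each is the 19-base sense strand. Both siCTU2 strands occur in the CTU2 transcript and the siGL2 strand does not.
siCTU2#1: cuaucaagcucaugaccaa
siCTU2#2: gcgugaacaugaaggacuu
siGL2: cguacgcggaauacuucga
At 0 h in the T arm CTU2 was at 2.95, 1.01 and 1.32 CPM with siCTU2 and at 21.1, 22.0 and 24.2 CPM with siGL2, a log2 fold change of -3.71 (SE 0.28, adjusted p = 9.16e-09). CTU2 was below 3 CPM in every siCTU2 library except siCTU2 TCHX 5 h replicate 3, one of the libraries that stood apart, where it was at 10.4 CPM.

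The first comparison asked how the pathway stood after CTU2 knockdown, before transcription was blocked. With siCTU2 the chemokine genes CXCL8 and CXCL1, BIRC3, the kinase gene MAP3K14 and RELB were higher than with siGL2, NFKBIA was slightly higher, and TNFAIP3 was lower by more than its replicates spread. In all, 7 of the 10 genes passed the test, 6 higher and 1 lower. Among all 12292 genes tested, 36% passed, 17.8% higher and 18.2% lower. In the TCHX arm 6 of the 10 passed, where 37.2% of genes did. The median log2 difference was 0.43 over the 10 genes and 0.0048 over all genes tested.

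Among the inhibitors, NFKBIA, whose product IκBα traps NF-kB in the cytoplasm, was at 62.9, 65.0 and 62.4 CPM with siCTU2 and at 52.7, 53.9 and 51.2 CPM with siGL2. The groups did not overlap and the log2 difference was 0.27 (SE 0.09, adjusted p = 0.0322), but the adjusted p rose to between 0.0549 and 0.0963 when any 1 of the 6 libraries was left out. TNFAIP3, which encodes the ubiquitin-editing enzyme A20 that ends NF-kB signalling, was at 6.11, 8.76 and 9.02 CPM with siCTU2 and at 22.1, 16.0 and 22.3 CPM with siGL2. All siCTU2 libraries lay below all siGL2 libraries, and TNFAIP3 fell by 1.33 on the log2 scale (SE 0.20, adjusted p = 3.58e-05). The TCHX arm at 0 h gave a log2 difference of -0.70 for TNFAIP3 (adjusted p = 0.00804), with 13.5, 7.66 and 10.0 CPM against 17.3, 17.8 and 16.0 CPM. NFKBIE, which encodes IκBε, was at 13.9 to 16.2 CPM with siCTU2 and 14.7 to 21.6 CPM with siGL2, and its log2 difference of -0.23 (SE 0.17) did not pass the test (adjusted p = 0.311).

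Of the subunit genes, RELB, the partner of the processed NFKB2 product, was at 27.4, 40.6 and 29.6 CPM with siCTU2 and at 20.7, 20.9 and 23.3 CPM with siGL2. It was higher in every siCTU2 library, by 0.59 on the log2 scale (SE 0.15, adjusted p = 0.00554), and by 0.85 in the TCHX arm (adjusted p = 0.000203). NFKB1, which encodes p105 and p50, ran from 98.2 to 125 CPM with siCTU2 and from 98.7 to 120 CPM with siGL2, and NFKB2 from 12.3 to 23.2 and from 14 to 20.7 CPM. These ranges overlapped, with log2 differences of -0.04 (SE 0.10) for NFKB1 and -0.03 (SE 0.21) for NFKB2.

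MAP3K14 encodes NIK, the kinase that starts the non-canonical branch. It was at 13.3, 16.2 and 12 CPM with siCTU2 against 4.50, 7.57 and 5.93 CPM with siGL2. All siCTU2 libraries lay above all siGL2 libraries, by 1.20 on the log2 scale (SE 0.23, adjusted p = 0.000406), and again by 0.92 in the TCHX arm (adjusted p = 0.00136). BIRC3, which encodes the ubiquitin ligase cIAP2 that takes part in keeping NIK protein low, was at 4.74, 8.94 and 4.90 CPM against 1.85, 3.16 and 2.59 CPM. It rose by 1.28 (SE 0.35, adjusted p = 0.00761) without overlap, on counts of 45 to 97 and 16 to 28 per library. Without siCTU2 replicate 2 the BIRC3 difference was 0.92 (adjusted p = 0.0754).

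The chemokine genes are targets at the end of the pathway. CXCL8 encodes interleukin-8, an attractant of neutrophils, and was at 19.9, 33.8 and 19.1 CPM with siCTU2 against 4.74, 17.5 and 9.75 CPM with siGL2. The spread was wide in both groups, and siCTU2 was higher by 1.18 (SE 0.31, adjusted p = 0.00564). The CXCL8 call was lost in the TCHX arm, with a log2 difference of 0.61 (adjusted p = 0.191) and ranges of 9.20 to 26.1 and 4.18 to 18.3 CPM, and under DESeq2 (adjusted p = 0.111). CXCL1, a related neutrophil attractant, was at 9.27, 9.04 and 8.09 CPM against 2.43, 3.39 and 4.32 CPM. It was higher in every siCTU2 library, by 1.38 (SE 0.27, adjusted p = 0.000589) in the T arm and 1.49 (adjusted p = 0.000264) in the TCHX arm.

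**Figure D1:**
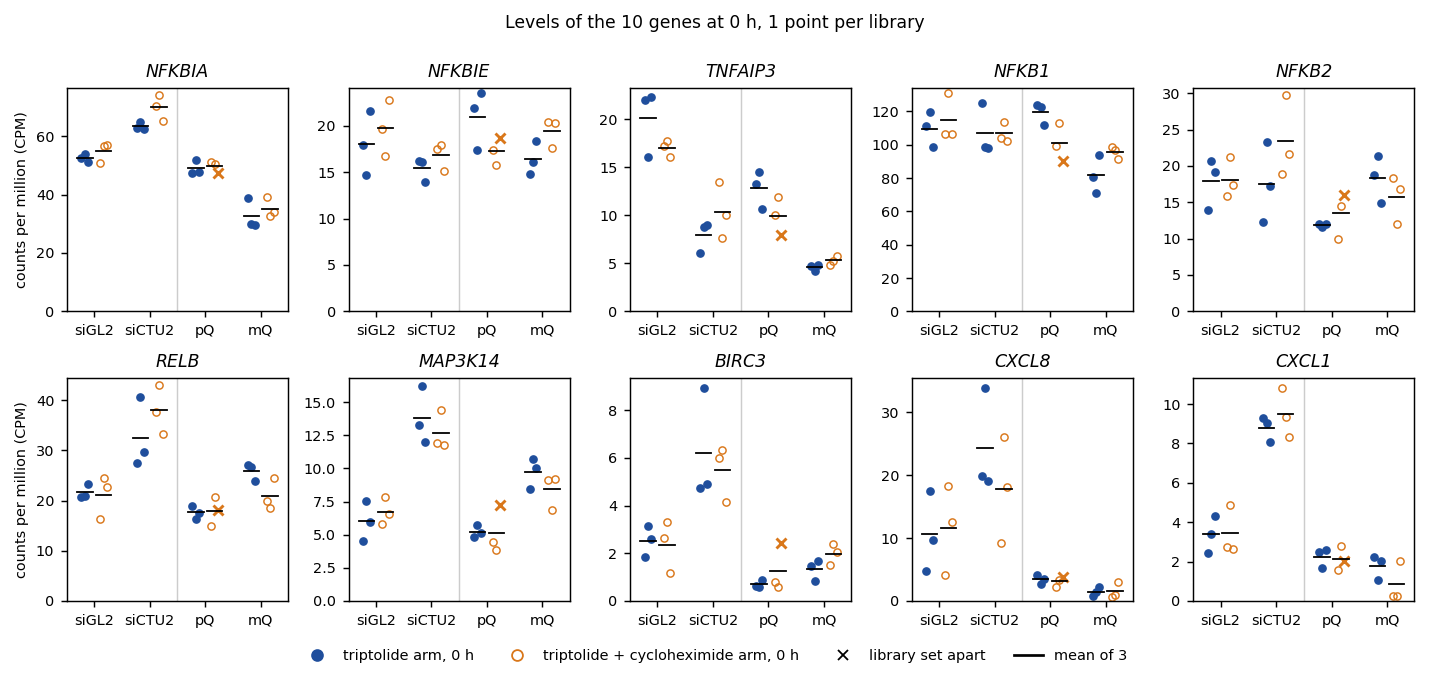
Levels of the 10 genes at 0 h in CPM, 1 point per library, for the T arm (filled) and the TCHX arm (open) in the 4 conditions. Black lines are means of 3, and the cross is pQ TCHX 0 h replicate 3. TNFAIP3 is low in siCTU2 and mQ, and MAP3K14 is high in both.

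The second comparison asked the same of cells without glutamine. Between mQ and pQ, TNFAIP3, NFKBIA and NFKB1 were lower without glutamine, and MAP3K14, NFKB2 and RELB were higher. This made 6 of 9 genes tested, where 24.8% of the 12374 genes tested passed. In the TCHX arm, where 6.47% of genes passed, only NFKBIA of the 10 genes did. Without pQ TCHX 0 h replicate 3 there were 3, NFKBIA, TNFAIP3 and MAP3K14, where 20.1% of genes passed.

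TNFAIP3 showed the largest difference of the 9, at 4.70, 4.19 and 4.83 CPM in mQ and 13.3, 14.6 and 10.7 CPM in pQ. The groups were far apart, and TNFAIP3 fell by 1.44 on the log2 scale (SE 0.22, adjusted p = 0.00121). In the TCHX arm it was at 4.87, 5.2 and 5.80 CPM against 10.1, 11.9 and 7.93 CPM, the last from the library that stood apart, and the difference was -0.89 (adjusted p = 0.0546). NFKBIA was at 38.7, 30.0 and 29.7 CPM in mQ and 47.4, 51.9 and 47.9 CPM in pQ. It was lower in each mQ library, by a log2 difference of -0.53 (SE 0.14, adjusted p = 0.0154), and by -0.48 in the TCHX arm (adjusted p = 0.0433). NFKBIE ran from 14.8 to 18.3 CPM in mQ and 17.4 to 23.6 CPM in pQ, and its difference of -0.30 did not pass (adjusted p = 0.236).

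MAP3K14 was at 8.41, 10.8 and 10.0 CPM in mQ against 4.83, 5.76 and 5.11 CPM in pQ. The log2 difference was 0.95 (SE 0.23, adjusted p = 0.0111) without overlap. In the TCHX arm MAP3K14 was at 9.17, 6.90 and 9.20 against 4.44, 3.81 and 7.23 CPM, a difference of 0.70 (adjusted p = 0.195). Of the subunits, NFKB2 was at 18.8, 21.3 and 14.9 CPM against 12, 11.6 and 12 CPM (log2 difference 0.68, SE 0.18, adjusted p = 0.019) and RELB at 27.1, 26.7 and 23.8 CPM against 19.0, 16.4 and 17.6 CPM (0.60, SE 0.15, adjusted p = 0.0128). NFKB1 went the other way, at 80.9, 71.1 and 93.9 CPM against 124, 123 and 112 CPM (-0.49, SE 0.12, adjusted p = 0.012). For these subunits the TCHX arm gave 0.22, 0.24 and -0.06, and the adjusted p of each was 0.473 or more. The T arm call of RELB was lost without pQ replicate 2 (adjusted p = 0.0662), that of NFKB1 without mQ replicate 1 or pQ replicate 1 or 2 (0.0546 to 0.0591), that of NFKB2 without mQ replicate 1 or any pQ library (0.0534 to 0.0736), and that of NFKBIA without pQ replicate 1 or 2 (0.0514 and 0.076).

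The chemokines were near the lower limit in the medium experiment, where 3 counts came to 0.371, 0.285 and 0.337 CPM in the mQ libraries of the T arm at 0 h. CXCL8 was at 0.742, 1.43 and 2.25 CPM in mQ, from 6, 15 and 20 counts, and at 4.08, 2.64 and 3.57 CPM in pQ. The groups did not overlap, yet the log2 difference of -1.15 (SE 0.45) did not pass (adjusted p = 0.0792). CXCL1 ran from 1.05 to 2.23 CPM in mQ and from 1.66 to 2.60 CPM in pQ (-0.31, SE 0.44, adjusted p = 0.64). BIRC3, at 0.856 to 1.69 CPM in mQ and 0.586 to 0.892 CPM in pQ, was too low to be tested.

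The controls of the 2 experiments were compared as well, since siGL2 cells had been transfected and pQ cells had not. CXCL8, BIRC3, TNFAIP3 and NFKB2 were higher in siGL2 than in pQ, 4 of 10 genes where 18.6% of 12236 genes passed. CXCL8 was at 4.74, 17.5 and 9.75 CPM against 4.08, 2.64 and 3.57 CPM (log2 difference 1.66, SE 0.35, adjusted p = 0.00128), and BIRC3 at 1.85 to 3.16 CPM against 0.586 to 0.892 CPM (1.83, SE 0.51, adjusted p = 0.0135). TNFAIP3 differed by 0.68 (SE 0.18, adjusted p = 0.00946) and NFKB2 by 0.62 (SE 0.18, adjusted p = 0.0183). In the TCHX arm 0 of the 10 passed with edgeR, where 4.3% of genes did and the unadjusted p was under 0.05 for 2 of the 10. Without pQ TCHX 0 h replicate 3 there were 2, TNFAIP3 and CXCL8, where 12.3% of genes passed. In the T arm the calls of NFKB2, TNFAIP3 and BIRC3 were lost without 1 or another library, with adjusted p of at most 0.108, and that of CXCL8 was not. The experiment, the transfection and the time before triptolide cannot be told apart here.

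The third question was how fast each transcript was lost when transcription stopped. For this, counts were scaled to genes that the study's rule calls stable, and the value left is given as a percent of the mean 0 h level of the same condition and arm. In the TCHX arm of pQ that mean holds pQ TCHX 0 h replicate 3, a library that stood apart. NFKBIA and MAP3K14 lost the most, NFKBIE and TNFAIP3 lost more than the median gene, and NFKB1, NFKB2 and RELB lay at most 0.26 below the median gene on the log2 scale. At 3 h of triptolide alone 5 of the 10 genes passed in siCTU2, 4 in siGL2, 8 in mQ and 7 in pQ, all lower. The shares of all genes that passed were 37.2%, 29.7%, 56.5% and 56.3%, and the median log2 change of all genes was -0.55, -0.47, -0.71 and -0.69. With TMM scaling, which sets the median gene near 0, the counts were 2, 3, 3 and 4, where 9.39%, 9.57%, 7.3% and 9.31% of all genes passed. Without the library that stood apart in each of siCTU2, mQ and pQ the counts were 5, 8 and 7, where 39.8%, 61% and 56.8% of all genes passed.

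Of NFKBIA, 3.45, 7.01 and 3.43% was left at 3 h in siCTU2, 2.90, 4.01 and 1.80% in siGL2, 4.92, 1.87 and 3.56% in mQ and 2.03, 3.52 and 2.22% in pQ. The most left in any of these 12 libraries was 7.01%. The log2 changes were -4.45 (SE 0.51), -5.09 (SE 0.47), -4.81 (SE 1.13) and -5.28 (SE 0.51), with adjusted p of 9.72e-06, 1.36e-06, 0.00264 and 1.11e-06. Without replicate 2 the mQ call was lost (adjusted p = 0.0507) at a change of -4.61. At 5 h, 0.523 to 1.93% was left in siGL2 and 0.859 to 1.79% in siCTU2. In mQ at 5 h the values were 0, 1.42 and 85.1%, the last being the library that stood apart. The mQ change at 5 h was -1.75 (adjusted p = 0.133) with that library and -6.99 (adjusted p = 1.1e-08) without it, where 45.3% and 54.7% of all genes passed. Without any replicate 3 at 5 h it was -7.00 (adjusted p = 9.28e-11), where 59% passed.

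MAP3K14 was at 0.830, 0.673 and 0.261 CPM at 3 h in siGL2 from 8, 6 and 2 counts, and at 0.211, 0.114 and 0.399 CPM in pQ from 2, 1 and 4 counts. The share left was 3.14 to 10.7% in siGL2, 5.13 to 12.8% in siCTU2, 2.24 to 7.69% in mQ and 1.57 to 4.61% in pQ. The log2 changes of MAP3K14 were -3.56 (SE 0.35) in siCTU2, -3.68 (SE 0.44) in siGL2, -4.20 (SE 0.69) in mQ and -4.94 (SE 0.49) in pQ, with adjusted p of 2.65e-06, 1.50e-05, 0.000479 and 1.26e-06. These low counts limit how finely the remaining levels can be ranked. In mQ at 5 h MAP3K14 stood at 1.85, 4.73 and 36.6%, and its change was -2.68 with the library that stood apart, -4.85 without it and -4.77 without any replicate 3 at 5 h. In pQ at 5 h MAP3K14 stood at 8.27, 6.93 and 18.8%, from 7, 5 and 11 counts, above all 3 pQ libraries at 3 h, with no library that stood apart among them.

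TNFAIP3 and NFKBIE fell more slowly. Of TNFAIP3, 16.2 to 46.2% was left at 3 h in siCTU2, 10.8 to 36.8% in siGL2, 11.9 to 24.4% in mQ and 14.1 to 29.8% in pQ, with log2 changes of -1.58, -1.87, -2.32 and -2.17 (adjusted p of 0.00557, 0.00134, 0.0013 and 7.67e-05). Of NFKBIE, 42.9 to 51.7% was left in siCTU2, 35.7 to 55.2% in siGL2, 28.5 to 39.9% in mQ and 30.7 to 39.1% in pQ. All 4 changes of NFKBIE passed, at -1.08, -1.06, -1.56 and -1.55 (adjusted p of 0.00178, 0.00453, 0.0171 and 1.1e-05). With TMM scaling the NFKBIE call was lost in siCTU2, siGL2 and mQ (adjusted p of 0.0687, 0.0913 and 0.28) and the TNFAIP3 call in siCTU2 (0.0943). Without replicate 1 the calls of NFKBIE in siCTU2 and siGL2 (0.0802 and 0.0826) and of TNFAIP3 in siCTU2 (0.0553) were lost, and without replicate 2 that of NFKBIE in mQ (0.0984). The median gene kept 66.0 to 70.7% in the siCTU2 libraries at 3 h and 54.2 to 66.9% in the pQ libraries.

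Among the chemokines, CXCL1 fell in siCTU2, where 17.5, 42.5 and 29.9% was left (log2 change -1.74, SE 0.46, adjusted p = 0.00761). In siGL2 16.7, 86.2 and 11.2% was left, and its change of -1.39 did not pass there (adjusted p = 0.163). CXCL8 fell in mQ, with 4.52 to 24.2% left from 1 to 5 counts (-2.60, SE 1.07, adjusted p = 0.047), and in pQ, with 14.6, 55.5 and 16.0% left (-1.82, SE 0.55, adjusted p = 0.0111). In the siRNA experiment CXCL8 kept 34.9 to 60.7% and 29.1 to 75.4%, and the changes of -0.97 and -1.10 did not pass (adjusted p of 0.143 and 0.292). The CXCL8 calls were lost in mQ without replicate 2 or 3 (adjusted p of 0.186 for each) and in pQ without replicate 1 or 3 (0.087 and 0.0537), and that of CXCL1 in siCTU2 without replicate 1 (0.164). Of the genes with the AU-rich letters, NFKBIA and TNFAIP3 fell in all 4 conditions and BIRC3 passed in none, while MAP3K14 and NFKBIE, with 0 copies, fell in all 4.

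The subunit genes stayed closest to the median gene. NFKB1 changed by -0.70 in mQ (adjusted p = 0.0322) and -0.87 in pQ (adjusted p = 0.0351), which is 0.02 above and 0.18 below the median gene of those fits, and with TMM scaling the mQ value turned to 0.04. NFKB2 passed in mQ alone, at -0.78 (adjusted p = 0.0409), where the median gene was at -0.71. RELB passed in mQ at -0.98 (adjusted p = 0.0115) and in pQ at -0.74 (adjusted p = 0.00558), and gave -0.44 and -0.55 in siCTU2 and siGL2 (adjusted p of 0.15 and 0.0796). Without replicate 1 or 2 the subunit calls in mQ were lost (adjusted p of 0.0939 to 0.26), as was that of NFKB1 in pQ (0.159 and 0.149), and without replicate 1 that of RELB in pQ (0.114). BIRC3 changed by between -1.30 and 0.23 and passed in none of the 4. In siCTU2, whose replicate numbers paired the 0 h and 3 h libraries, a fit with the replicate block also called RELB (adjusted p = 0.0325) and NFKB1 (adjusted p = 0.0443), where 40.5% of all genes passed.

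At 5 h the replicate 3 libraries differed from the others in the subunit genes. In the 6 groups at 5 h whose replicate 3 did not stand apart by its marker genes, NFKB2 in replicate 3 was at 27.6 to 58.7 CPM against 10.1 to 27.7 CPM in replicates 1 and 2, and it was the highest of the 3 replicates in each group. NFKB1 in these replicate 3 libraries was at 28.7 to 48.4 CPM, against 72.9 to 107 CPM. The median gene kept 34.7% in siCTU2 T 5 h replicate 3 and 58.8 and 64.4% in replicates 1 and 2. The part of this shift in the 5 h values was not tested, and the fitted 5 h changes are given also without replicate 3.

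The fourth question was how this loss differed when cycloheximide was present. With cycloheximide present, MAP3K14 lost little and NFKBIA lost less than with triptolide alone, whereas the other 8 genes did not pass the test at 3 h. In siCTU2, siGL2 and pQ 2 of the 10 genes passed, MAP3K14 and NFKBIA, where 4.33%, 3.5% and 2.85% of all genes did. In mQ 1 passed, MAP3K14, where 0.342% of 13442 genes did. Without mQ T 5 h replicate 3, which shares the fit, 4 passed in mQ, MAP3K14, NFKBIA, TNFAIP3 and NFKBIE, where 11% of all genes did. Without their own libraries that stood apart, siCTU2 and pQ had 2 each, where 5.49% and 3.12% of all genes passed. With the replicate block, which the pairing of the arms at 3 h allowed in siCTU2, mQ and pQ, 3, 1 and 3 of the 10 passed, where 4.8%, 1.03% and 4.88% of all genes did. The block moved the count over all genes from 46 to 138 in mQ and from 380 to 652 in pQ.

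MAP3K14 at 3 h of triptolide with cycloheximide was at 6.25, 9.89 and 11.1 CPM in siGL2 against 0.830, 0.673 and 0.261 CPM with triptolide alone. In siCTU2 the values were 14, 13.9 and 12.2 CPM against 1.53, 2.28 and 0.999 CPM. In mQ they were 12, 12.8 and 14.7 CPM against 0.340, 0.914 and 1.17 CPM, and in pQ 7.28, 5.00 and 6.41 CPM against 0.211, 0.114 and 0.399 CPM. The arms did not come near each other in any condition. The log2 differences were 3.12 (SE 0.34), 3.86 (SE 0.43), 4.06 (SE 0.68) and 4.58 (SE 0.49) in siCTU2, siGL2, mQ and pQ, with adjusted p of 6.56e-05, 7.14e-05, 0.0214 and 2.72e-05. With both drugs 72.8 to 92.0% of MAP3K14 was left in siCTU2, 68.4 to 115% in siGL2, 92.4 to 111% in mQ and 71.4 to 102% in pQ. The pQ percents rest on a 0 h mean that holds pQ TCHX 0 h replicate 3, a library that stood apart. Without replicate 1 the MAP3K14 call was lost in siCTU2 (adjusted p = 0.0569), and in mQ it was lost without replicate 1 (0.332) or 2 (0.693), each time with a difference of at least 3.03. The antisense gene MAP3K14-AS1 had at most 6 counts in a library.

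NFKBIA at 3 h of both drugs was at 21.0, 30.8 and 17.8 CPM in siCTU2, 19.2, 15.8 and 17.9 CPM in siGL2, 7.88, 9.89 and 12.7 CPM in mQ and 13.5, 13.7 and 11.8 CPM in pQ. With triptolide alone the highest of the 12 libraries was at 5.74 CPM. The log2 differences were 2.61 (SE 0.48, adjusted p = 0.00358) in siCTU2, 3.10 (SE 0.45, adjusted p = 0.000535) in siGL2 and 2.76 (SE 0.49, adjusted p = 0.00278) in pQ. In mQ the difference of 2.57 had an SE of 1.08 (adjusted p = 0.275) with mQ T 5 h replicate 3 in the fit and an SE of 0.36 (adjusted p = 7.69e-05) without it. The NFKBIA call was lost without replicate 1 in siCTU2 (adjusted p = 0.159) and siGL2 (0.117) and without replicate 2 in siCTU2 (0.0821) and pQ (0.134), with differences between 2.51 and 3.03. At 5 h with both drugs NFKBIA was at 4.17, 6.72 and 2.96% left at 5 h in mQ and 2.73, 4.57 and 5.45% left in pQ, where its difference from triptolide alone was 1.04 (adjusted p = 0.337), and 0.37 (adjusted p = 0.681) without replicate 3 at 5 h. In siCTU2 at 5 h of both drugs the values were 6.73, 10.5 and 37.9%, the last being the library that stood apart.

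**Figure D2:**
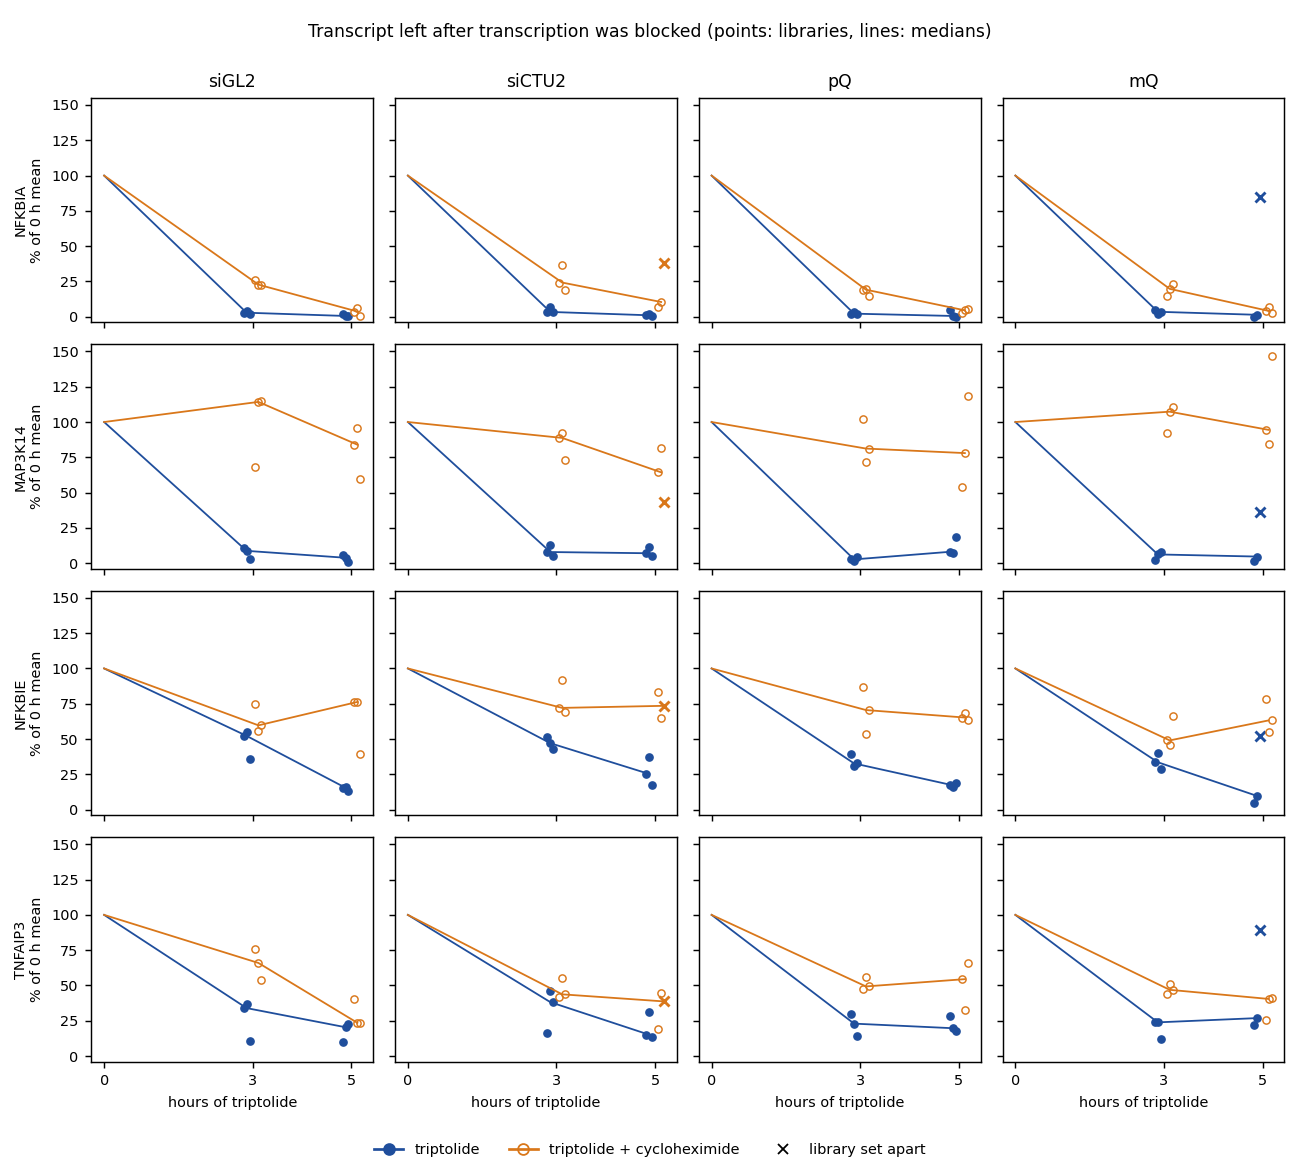
Percent of the mean 0 h level left after 3 and 5 h of triptolide alone (blue) or with cycloheximide (orange), 1 point per library, for 4 genes (rows) in 4 conditions (columns). Lines join medians and crosses mark libraries that stood apart. The pQ values with cycloheximide use a 0 h mean that holds pQ TCHX 0 h replicate 3. With cycloheximide MAP3K14 keeps 54.1 to 147%, except for 43.7% in siCTU2 TCHX 5 h replicate 3, and the 147% is mQ TCHX 5 h replicate 3. Without cycloheximide MAP3K14 keeps at most 18.8%, except for 36.6% in mQ T 5 h replicate 3. NFKBIA falls in both arms.

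NFKBIE did not pass at 3 h in any condition and passed at 5 h in siCTU2, siGL2 and pQ, where 19.4%, 9.98% and 10.2% of all genes passed. At 3 h its difference was 0.77 in siCTU2 (adjusted p = 0.0693), 0.57 in siGL2 (adjusted p = 0.355), 0.94 in mQ (adjusted p = 0.453) and 0.69 in pQ (adjusted p = 0.0597). With the replicate block NFKBIE passed in siCTU2 (adjusted p = 0.0475) and pQ (adjusted p = 0.0294) but not in mQ (adjusted p = 0.453). At 5 h in siCTU2 NFKBIE was at 5.61, 7.67 and 5.34 CPM with triptolide alone. With both drugs it was at 18.5, 15.2 and 16.4 CPM, the last from the library that stood apart. In siGL2 it was at 3.67, 3.57 and 3.86 CPM against 19.5, 19.9 and 14.2 CPM. The arms lay apart in both, by 1.5 (adjusted p = 0.00019) and 2.27 (adjusted p = 2.45e-05). In pQ at 5 h the difference was 1.56 (adjusted p = 2.93e-05). In mQ it was 1.79 (adjusted p = 0.148) with all libraries and 3.45 (adjusted p = 8.08e-07) without the library that stood apart, where 0.231% and 16.5% of all genes passed. Without any replicate 3 at 5 h the NFKBIE differences were 1.27, 2.44, 3.46 and 1.64 in siCTU2, siGL2, mQ and pQ (adjusted p of 0.00215, 2.60e-07, 4.10e-08 and 2.12e-05). In those fits 12.1%, 15.6%, 19.5% and 14.4% of all genes passed. In the mQ library that stood apart NFKBIE was at 11 CPM against 1.05 and 2.37 CPM in replicates 1 and 2.

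TNFAIP3 gave differences of 0.79, 1.05, 1.49 and 0.78 at 3 h in siCTU2, siGL2, mQ and pQ and passed in none (adjusted p of 0.406, 0.178, 0.128 and 0.327), though in mQ without the library that stood apart it passed (adjusted p = 0.00553). The subunit genes NFKB1, NFKB2 and RELB differed by between -0.36 and 0.49, and none passed. For CXCL8 the largest difference was 2.12 in mQ (SE 1.05, adjusted p = 0.388), and for CXCL1 1.06 in pQ (SE 0.99, adjusted p = 0.924). BIRC3 ran from -0.66 to 1.36. The SEs of these 3 genes ran from 0.46 to 1.29 over the 4 conditions.

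**Figure D3:**
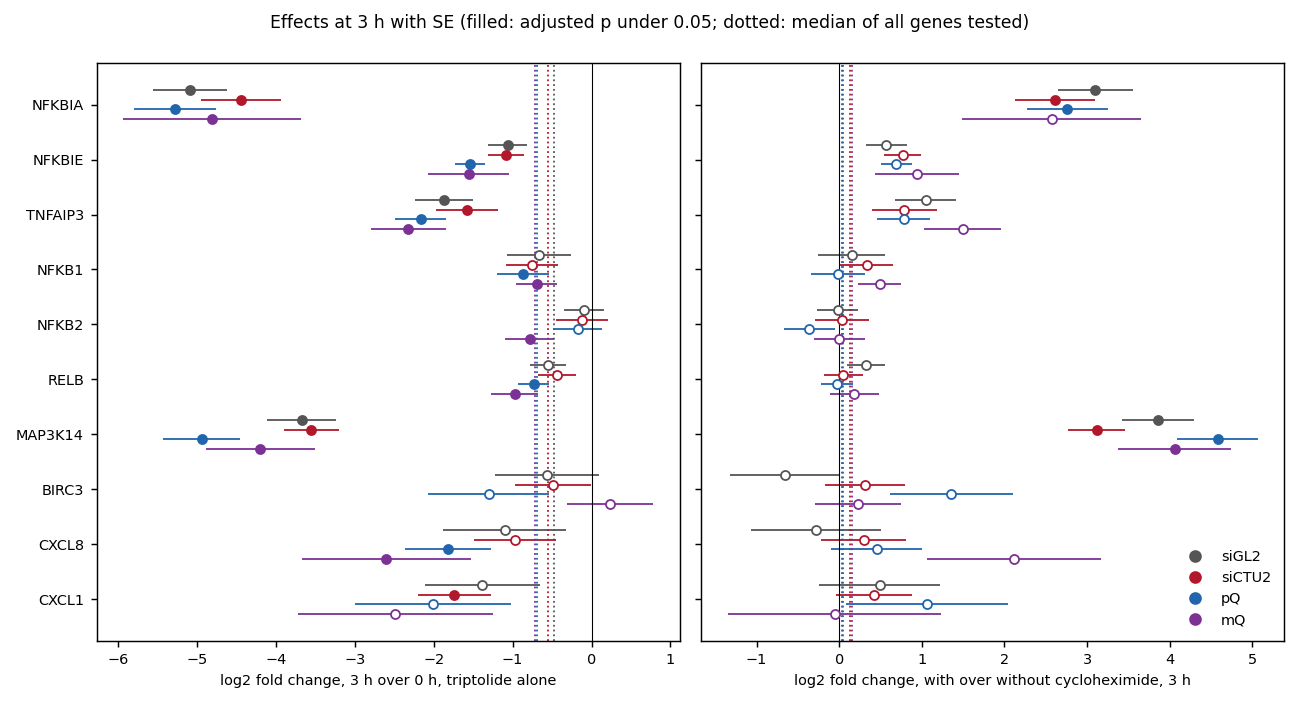
Log2 changes at 3 h with triptolide alone (left) and differences made by cycloheximide at 3 h (right) for the 10 genes in 4 conditions, with SE bars. Filled points had an adjusted p under 0.05, and dotted lines are the medians of all genes tested. On the right, filled points are found for MAP3K14 and NFKBIA.

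Whether the conditions differed in these responses was tested directly. The difference between siCTU2 and siGL2 in 3 h decay was called for 0 of 14259 genes (0%) with edgeR, none of the 10 among them. At an unadjusted p under 0.05 there were 414 genes, and DESeq2 called 7 and 0 of the 10. For the cycloheximide difference the counts were 0 (0%), 325 and 2. Between mQ and pQ edgeR called 0 of 14177 genes for decay (0%) and 0 for the cycloheximide difference (0%), with 356 and 259 at an unadjusted p under 0.05 and 5 and 4 by DESeq2. Without replicate 3, which leaves out the libraries that stood apart, edgeR called 0 of the 10 in each of these 4 tests. For NFKBIA the decay differed by 0.65 (SE 0.69) between siCTU2 and siGL2 and by 0.47 (SE 1.26) between mQ and pQ. For MAP3K14 the cycloheximide difference was 0.75 smaller on the log2 scale in siCTU2 than in siGL2 (-0.75, SE 0.55) and 0.52 smaller in mQ than in pQ (-0.52, SE 0.89). At 5 h without replicate 3, NFKBIE alone of the 10 passed, with a cycloheximide difference larger by 1.82 in mQ than in pQ (SE 0.43, adjusted p = 0.0463), where 0.389% of genes passed, a setting chosen after the data were seen. The calls over all genes depended on the setting. Between siCTU2 and siGL2 they ran from 0 to 204 for decay and from 0 to 71 for the cycloheximide difference. Between mQ and pQ they ran from 0 to 757 and from 0 to 55.

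The study's index of translation-dependent decay (TDD) puts the same readout on a linear scale, as the level with both drugs minus the level with triptolide alone, over the 0 h level. The 3 h and 5 h values of a replicate share that 0 h level and entered the fit as separate values, so its SEs may be too small. Between siCTU2 and siGL2, 2 of the 10 genes had an unadjusted p of at most 0.05, RELB and MAP3K14, both lower in siCTU2. Of 12288 genes 8.16% did, 7.28% higher and 0.887% lower, and none of the 10 passed after adjustment. The MAP3K14 index at 3 h was 0.775, 0.622 and 0.704 in siCTU2 and 0.747, 0.937 and 1.27 in siGL2. At 5 h it was 0.547, 0.547 and 0.400 against 1.00, 0.810 and 0.667. The 5 h groups did not overlap, and the fitted difference was -0.31 (SE 0.10, adjusted p = 0.542). RELB was at -0.109, 0.111 and 0.0436 at 3 h in siCTU2 against 0.276, 0.202 and 0.0552 in siGL2, and at -0.127, 0.102 and -0.166 against 0.380, 0.270 and 0.167 at 5 h. Its difference was -0.25 (SE 0.07, adjusted p = 0.491). Without replicate 3 the unadjusted p of MAP3K14 was 0.0526, and without replicate 1 that of RELB was 0.0735. Between mQ and pQ 0 of the 10 reached that p, where 4.79% of 12428 genes did. That fit uses 2 libraries that stood apart, mQ T 5 h replicate 3 and, in the 0 h level, pQ TCHX 0 h replicate 3. The NFKBIA index at 5 h in mQ was -0.804 in replicate 3, against 0.0409 and 0.0595 in replicates 1 and 2. Leaving out a replicate gave 0 to 1 of the 10.

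**Figure D4:**
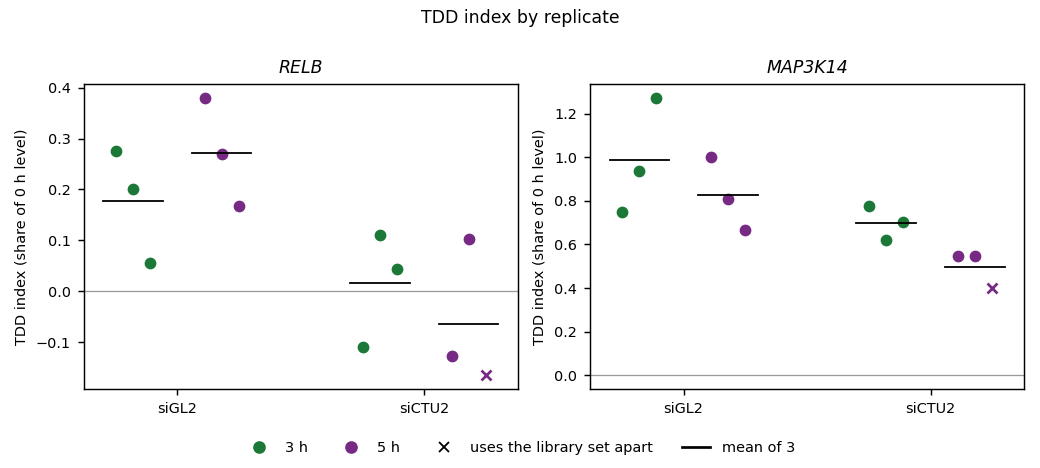
TDD index of RELB and MAP3K14 by replicate at 3 h (green) and 5 h (purple) in siGL2 and siCTU2, as a share of the 0 h level. Black lines are means of 3, and crosses use siCTU2 TCHX 5 h replicate 3. The siCTU2 means lie below the siGL2 means at both times for both genes.

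The rest of the pathway was followed with a list of 79 other genes in 7 groups, of which 52 to 55 were tested per comparison. At 0 h between siCTU2 and siGL2, 12 were higher and 10 lower of 54, with a list median of -0.03, where 36% of all genes passed, 17.8% higher and 18.2% lower. The counts in the TCHX arm were 10 higher and 9 lower of 53, where 37.2% of all genes passed. NUAK2, a kinase gene induced by NF-kB, rose by 2.46 (SE 0.45, adjusted p = 0.000321), and TNFRSF12A, the receptor of the ligand TWEAK, which acts on the non-canonical branch, rose by 1.43 (SE 0.15, adjusted p = 7.72e-07). TNIP1, which works with A20, fell by 1.39 (SE 0.14, adjusted p = 2.81e-07), and the adaptor TRAF1 fell by 1.42 (SE 0.28, adjusted p = 0.000576). Of the 7 feedback genes 2 were higher and 3 lower in the T arm, and 0 higher and 1 lower in the TCHX arm.

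Between mQ and pQ, 6 were higher and 7 lower of 53, where 24.8% of all genes passed. CHUK, which encodes the kinase IKKα of both branches, fell by 1.20 (SE 0.18, adjusted p = 0.000858), and the Toll receptor adaptor MYD88 fell by 1.14 (SE 0.21, adjusted p = 0.00306). RBCK1, which encodes HOIL-1 of the linear ubiquitin ligase, rose by 1.13 (SE 0.13, adjusted p = 0.00015), and TRAF1 fell by 0.80 (SE 0.26, adjusted p = 0.038). In the TCHX arm 3 were higher and 0 lower of 54, where 6.47% of all genes passed. That fit holds pQ TCHX 0 h replicate 3, without which 20.1% of all genes passed, and the list was not counted without it. Between siGL2 and pQ, 6 were higher and 3 lower of 53, where 18.6% of all genes passed, and in the TCHX arm 2 were higher and 0 lower of 55, where 4.3% did. Without pQ TCHX 0 h replicate 3 the all-gene share in that arm was 12.3%, and the list was not counted. In the T arm the cytokine gene IL11 was higher by 2.86 (SE 0.38, adjusted p = 7.40e-06), and BCL2A1, NFKBIZ and TRAF3 were lower, with log2 differences of -0.68, -0.60 and -0.54.

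With triptolide alone at 3 h, 26 of 54 fell in siCTU2, 21 of 53 in siGL2, 40 of 55 in mQ and 42 of 55 in pQ, and 0 rose, where 37.2%, 29.7%, 56.5% and 56.3% of all genes passed. Without the library that stood apart in siCTU2, mQ and pQ the all-gene shares were 39.8%, 61% and 56.8%, and the list was not counted. The list medians were -0.79, -0.63, -0.98 and -0.93, against -0.55, -0.47, -0.71 and -0.69 over all genes. NFKBIZ, an inducible nuclear IκB protein, fell by 3.73, 4.89, 5.57 and 5.63 on the log2 scale in siCTU2, siGL2, mQ and pQ, and the transcription factor gene IRF1 fell by 3.92, 3.83, 3.34 and 3.68. TRAF6, an adaptor of the interleukin-1 and Toll receptors, fell by 2.51, 3.53 and 3.47 in siCTU2, siGL2 and pQ. NUAK2 fell by 4.48 in siCTU2, REL, the c-Rel subunit, by 2.18 in siGL2, TRAF1 by 2.58 and BCL3 by 2.99 in mQ, and the cytokine gene LIF by 2.79 in pQ. These losses need not be particular to the condition named. RELA and REL both passed as lower in all 4. The mean left at 3 h in siCTU2, siGL2, mQ and pQ was 4.08, 0, 0 and 1.35% for NUAK2 and 22.2, 23.1, 12.6 and 14.6% for BCL3. It was 89.4, 48.6, 16.5 and 40.5% for TRAF1 and 21.9, 38.2, 49.0 and 14.6% for LIF.

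Cycloheximide raised 5 of 54 in siCTU2, 3 of 53 in siGL2, 0 of 55 in mQ and 3 of 55 in pQ, and lowered 0 in each, where 4.33%, 3.5%, 0.342% and 2.85% of all genes passed. The mQ fit holds mQ T 5 h replicate 3, without which 11% of all genes passed at 3 h. Without their own libraries that stood apart, the shares were 5.49% in siCTU2 and 3.12% in pQ. The list was not counted at 3 h without these libraries. At 5 h without replicate 3 the counts were 14, 15, 23 and 17 higher and 1, 1, 0 and 0 lower, where 12.1%, 15.6%, 19.5% and 14.4% of all genes passed. BCL3, a nuclear IκB protein, was higher with cycloheximide by 1.65 in siCTU2, 1.89 in siGL2 and 1.67 in pQ (adjusted p of 0.0069, 4.07e-05 and 0.0176). TRAF2, an adaptor that recruits cIAP ligases to NIK, was higher by 1.09 in siCTU2 and 0.89 in pQ (adjusted p of 0.00231 and 0.0422). IRF1 was higher by 3.23 in siGL2 and 2.57 in pQ, TRAF6 by 2.39 in siGL2, NUAK2 by 3.90 in siCTU2 and the deubiquitinase gene OTUD7B by 0.71 in siCTU2. A gene not named for a condition may have moved there too. The mean of NUAK2 left at 3 h was 0, 0 and 1.35% with triptolide alone in siGL2, mQ and pQ, and 24.1, 48.3 and 51.8% with both drugs. That of IRF1 was 6.65 and 28.4% in siCTU2 and 9.80 and 59.5% in mQ.

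As a description, the genes most like NFKBIA over the 24 group means of log2(CPM + 1) were IER5, JUNB and PCF11, with Pearson r of 0.973, 0.972 and 0.968 among 9779 genes. For TNFAIP3 they were SSH2, HOXA5 and RABEP1 (0.917, 0.911 and 0.909), and for CXCL8 MANCR, EHD1 and SLAIN2 (0.962, 0.962 and 0.958). The group means share libraries, drugs and sequencing depth, and 3 of the 24 include a library that stood apart.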

How the data were processed

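Counts were deposited by the authors as 1 table of raw whole-number read counts per gene and library, not normalized. The submitters' processing notes name fastp 0.20.1, HISAT2 2.2.1, HTSeq 0.13.5 and GRCh38.p13. A strand setting and a step for molecular identifiers are not given in the sources used here, so reads may include amplification copies, and error estimates of single libraries cover counting only. Depth was 5987692 to 15534331 counts per library, and 3 counts came to 0.193 to 0.501 CPM.

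Groups came from the sample titles. CPM was each count over its library total. Tests were run in R 4.3.3 with edgeR 4.0.16 (quasi-likelihood F-test, two-sided, filterByExpr, Benjamini-Hochberg adjustment over all genes tested, threshold 0.05), on the 6 libraries compared at 0 h with TMM scaling, on the 18 libraries of a condition for drug effects and on 36 for differences between conditions. Standard errors were taken as the log2 fold change over the square root of F. Drug contrasts used size factors from stable genes, defined as the study's methods do, 197 genes with 4.30% of counts in the siRNA experiment and 81 genes with 2.51% in the medium experiment, with 0 of the 10 genes among them. The TDD index was fitted with a linear model on condition, time and replicate for genes with a 0 h level of at least 10. Alternatives were DESeq2 1.42.0, limma 3.58.1, other scalings, filters, times and arms, and leaving out libraries.

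The 10 genes, the list of 79 pathway genes and the rule for named genes were chosen with earlier results of these data known. Named were the 10 genes, CTU2 and, per comparison, up to 4 list genes with the largest change among those past the threshold with a mean count of at least 50. The most alike genes were ranked by Pearson r on log2(CPM + 1). The scripts were tested on simulated data. Replicate numbers were taken as pairing 2 groups where each same-numbered pair of libraries deviated from its group means with r above 0.1, which held in 5 of 11 pairs of groups (r of -0.12 to 0.44 over all), the 0 h and 3 h T libraries of siCTU2 and pQ and the T and TCHX libraries at 3 h of siCTU2, mQ and pQ.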

Additional observations from a re-analysis of the deposited data

Results flagged for a closer look

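The TDD index of RELB was lower in siCTU2 than in siGL2 by a test of the difference itself, at -0.249 (SE 0.0673), and that of MAP3K14 was lower at -0.306 (SE 0.103). Neither passed after adjustment over all genes (adjusted p of 0.491 and 0.542), and both use siCTU2 TCHX 5 h replicate 3, whose part in the result was not tested beyond leaving out replicate 3. Without replicate 3 the values were -0.288 (unadjusted p = 0.026 in the linear model) for RELB and -0.250 (unadjusted p = 0.0526 in the linear model) for MAP3K14. The linear model takes the 3 h and 5 h values of a replicate as separate, though they share their 0 h level, so its SEs and p-values may be too small.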

How the results depend on the processing

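Among 50 called effects of the 10 genes, 625 alternative values were computed, of which 525 kept direction and call, 99 kept direction and lost the call, and 1 turned direction, NFKB1 with triptolide in mQ under TMM (0.0366). Causes were not tested.
Against 6 genes called between mQ and pQ, the TCHX arm gave 1, and 3 without pQ TCHX 0 h replicate 3. Against 4 between siGL2 and pQ it gave 0 and 2. Leaving out 1 library gave 5 to 6 calls between siCTU2 and siGL2 (7 with all), 2 to 7 between mQ and pQ and 2 to 3 between siGL2 and pQ. The calls over all genes moved as well. Over all settings they ran from 3611 to 6202, from 810 to 3620 and from 537 to 3279 in these 3 comparisons.
For triptolide at 3 h, TMM gave 2 in siCTU2, 3 in mQ and 4 in pQ, and 5 h gave 8 in siCTU2 (8 also without the library that stood apart) and 3 in mQ. Scaling to genes stable at both times, only 8 genes in the siRNA experiment, gave 8 in siCTU2 and 7 in siGL2. Over all settings the calls over all genes ran from 1182 to 9143 in siCTU2 and 1259 to 8375 in siGL2. In mQ they ran from 981 to 11406 and in pQ from 1243 to 10430, so the counts among the 10 genes are to be read beside these. Leaving out a replicate number gave 2 to 7, 3 to 5, 2 to 7 and 4 to 7 in siCTU2, siGL2, mQ and pQ.
For cycloheximide at 3 h, it gave 0 to 2, 1 to 2, 0 to 3 and 1 to 2. In mQ, against 1 (0.342% of all genes), there were 0 at 5 h (0.231%) and 4 without the library that stood apart (11%). At 5 h there were 5 without that library (16.5%) and 4 without replicate 3 (19.5%). No filter gave 2, and stable genes also chosen without that library gave 4. With the 0 h difference between arms subtracted there were 0 in mQ and 1 in siCTU2. The shares of all genes for these last settings are not given. Between mQ and pQ the cycloheximide difference was called for 1 gene at 5 h without replicate 3. For cycloheximide within a condition, the calls over all genes ran from 25 to 2650 in siCTU2 and 57 to 2060 in siGL2 over all settings. In mQ they ran from 0 to 2613 and in pQ from 58 to 1921.
For the TDD index, between siCTU2 and siGL2, the mean over times with a replicate block gave 1, each arm over its own 0 h library 1, and leaving out a replicate 1. Between mQ and pQ, no replicate block gave 1, the mean over times with a replicate block 2, own 0 h libraries 1, and leaving out a replicate 0 to 1. Over all settings 480 to 2208 of all genes reached the unadjusted threshold between siCTU2 and siGL2, and 380 to 2812 between mQ and pQ.
In siGL2 a replicate block gave 8 calls with triptolide against 4. The share of all genes that passed with that block is not given, and over all settings the calls over all genes ran from 1259 to 8375 in siGL2. There the same-numbered 0 h and 3 h T libraries had r of 0.0927, 0.172 and 0.225, the first just under the limit used for pairing. The column names give each replicate number a shared prefix in all conditions. Elsewhere the block changed no count of calls among the 10 genes by over 1.5 times in the edgeR fits. All settings with libraries that stood apart left out at 5 h, with replicate 3 left out at 5 h or with the 0 h difference subtracted were chosen after the data were seen. An adjusted p that DESeq2 did not give was left out. Depth limits CXCL8, CXCL1 and BIRC3 in the medium experiment and MAP3K14 after triptolide, which rest on few counts.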
